A study of Mus musculus with 24 samples.

Results

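Bcl11b and 9 further transcription factor genes of the T lineage (Gata3, Tcf7, Lef1, Runx1, Ets1, Myb, Satb1, Sox4 and Cbfb) were followed through 21 mouse thymic lymphomas and 3 samples of normal thymus. They are 10 of 21878 genes in the deposited count table, chosen by name, with earlier results of these data known, and all 10 passed the filter on low counts. The mice were female B6C3F1 animals given 4 weekly whole-body doses of 1.6 Gy of carbon ions from an age of 4 to 5 weeks. The treatment label also stands on the thymus samples, whose titles carry the mark 7W without explanation. Cells were brought into suspension before RNA was taken, from lymphoma or from normal thymus. The authors' filtered tables name their columns by mutation set, and by those names 11 lymphomas had an Ikzf1 mutation (lymphomas 2, 4, 7, 9, 10, 12, 13, 14, 15, 16 and 17) and 10 did not (18, 19, 20, 21, 22, 30, 31, 32, 34 and 35). Ikzf1 encodes Ikaros, a zinc finger factor of lymphoid cells. No label ties a lymphoma to a mouse. The p-values therefore cover the spread over these libraries, which may be less than that over animals.

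Thymocyte precursors become T cells under Notch signals. Notch switches on Tcf7, which encodes TCF-1, and Gata3, and these factors with Runx1 in turn switch on Bcl11b. Bcl11b closes off the natural killer and progenitor fates, and it is known as a tumour suppressor gene of radiation-induced mouse thymic lymphoma. Satb1 folds chromatin in thymocytes, Lef1 and Sox4 are relatives of TCF-1 with the same kind of DNA-binding domain, and Cbfb is the partner subunit of the Runx proteins. Ets1 and Myb bind enhancers of T-cell receptor genes together with Runx1.

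Levels below are CPM, counts relative to the library total scaled by the trimmed mean of M-values (TMM), unless TPM, a level also divided by transcript length, is named. A call is a Benjamini-Hochberg adjusted p under 0.05 over 13121 tested genes by edgeR's quasi-likelihood test. Total counts were 15 to 36.6 M in the lymphomas and 24.5 to 27.5 M in thymus, and the lowest count of any of the 10 genes in any library was 1558, for Lef1 in lymphoma 18. The 8 T-cell markers Cd3e, Cd3d, Cd3g, Cd2, Thy1, Ptprc, Lck and Cd5 were detected in every group, with a summed level of 3080 to 5680 CPM in the lymphomas and 6620 to 7390 CPM in thymus. Among them Cd2 was low in both (2.905 to 8.769 CPM in thymus). Markers of other cell types also moved between these groups. The 14 macrophage markers summed to 339 to 1290 CPM in the lymphomas and 160 to 231 in thymus, and the 11 fibroblast markers to 60.9 to 1300 against 13.3 to 17.5. The 11 thymic epithelial markers summed to 20.8 to 56.0 CPM against 55.1 to 94.6, the 11 neutrophil markers to 0.753 to 68.7 against 59.9 to 111, the 9 B-cell markers to 2.82 to 243 against 53.4 to 89.6, and the 7 erythroid markers to 6.87 to 342 against 33.3 to 39.9. No marker of these lists was at 0 counts throughout a group, and their part in the results below was not tested. In such bulk samples, fewer cells of a type and less RNA per cell cannot be told apart.

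Short recognition words of these factor families were looked up on both strands of RefSeq promoter windows (GRCm38.p6), each 250 bases before to 50 after a start site. RefSeq entries matched 9 of the 10 genes (all but Ets1), with 18 windows in all. GATAA (GATA family) was present in 3 of the 18 windows (of Tcf7, Lef1 and Sox4), against 25.4% of all 32851 windows. CTTTGA (TCF and LEF) was present in 2 windows (Bcl11b and Lef1), against 16% of all windows. CCGGAA (ETS) was present in 3 (Gata3, Tcf7 and Runx1), against 14.9%. The RUNX word TGTGGT, also searched with its middle as TGCGGT, was present in 1 window (Runx1), against 22.4%. The MYB word CAACTG, also searched as TAACTG for a changed start, as CAACGG for a changed end and as TAACGG for both, was present in 4 windows (Runx1 and Satb1), against 28.3%. TGGGAA, a core word of Ikaros, was present in 6 windows (Lef1, Satb1 and Sox4), against 25.6%. Windows of 1 gene can overlap, so a match can count more than once. The same TGGGAA lies in 2 Lef1 windows, and the same MYB word in 2 Satb1 windows. The GATA and MYB words can share the letters TAA. A match describes letters only, and is neither a bound site nor a cause.

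The stretches below are shown because the genes they precede carry the results: Bcl11b and Satb1 are low in every lymphoma, Lef1 spans the widest range, and Runx1 differs between the mutation sets and moves with Ets1 and Myb. They read 5′ to 3′ on the strand of the gene, and capitals mark the words named above (the TCF and LEF word, read as CTTTGA in Bcl11b and from the other strand as TCAAAG in Lef1, with the GATA word in Lef1 and the MYB and ETS words in Runx1). The Bcl11b stretch (chr12:108003486-108003515, minus strand) is the 30 bases around its TCF and LEF word. The Lef1 stretch (chr3:131156044-131156293, plus strand) lies before a start inside the gene, listed as the fourth. The Satb1 stretch (chr17:51833291-51833540, minus strand) lies before its first listed start and holds none of the words. The Runx1 stretches lie before the distal start (chr16:92826150-92826324, minus strand) and before the next listed start (chr16:92697330-92697579, minus strand).
Bcl11b: agaggccaagcaCTTTGAagaagtgtgaga
Lef1: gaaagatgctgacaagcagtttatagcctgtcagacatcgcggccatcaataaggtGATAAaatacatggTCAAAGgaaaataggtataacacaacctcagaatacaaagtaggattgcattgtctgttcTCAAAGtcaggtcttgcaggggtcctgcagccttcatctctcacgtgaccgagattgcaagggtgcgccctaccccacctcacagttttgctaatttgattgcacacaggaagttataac
Satb1: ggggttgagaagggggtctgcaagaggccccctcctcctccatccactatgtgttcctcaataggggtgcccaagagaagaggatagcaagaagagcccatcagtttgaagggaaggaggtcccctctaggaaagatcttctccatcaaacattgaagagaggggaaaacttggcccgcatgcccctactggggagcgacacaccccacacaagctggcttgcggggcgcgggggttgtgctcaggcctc
Runx1 distal: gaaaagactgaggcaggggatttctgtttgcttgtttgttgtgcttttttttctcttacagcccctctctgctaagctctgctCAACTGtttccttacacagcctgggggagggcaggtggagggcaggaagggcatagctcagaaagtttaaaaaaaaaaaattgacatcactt
Runx1 next: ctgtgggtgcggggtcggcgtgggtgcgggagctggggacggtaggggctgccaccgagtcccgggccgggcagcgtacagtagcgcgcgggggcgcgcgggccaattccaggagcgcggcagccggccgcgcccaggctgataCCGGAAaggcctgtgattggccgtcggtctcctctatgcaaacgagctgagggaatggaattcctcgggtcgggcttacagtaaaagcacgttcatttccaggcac

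The first comparison set all lymphomas against normal thymus, to describe how the factors stand in tumours and in their tissue of origin. Of the 10 genes, 5 were lower in the lymphomas (Satb1, Bcl11b, Myb, Sox4 and Tcf7), against a background of 15.4% of all tested genes called lower and 30.8% called in either direction. No gene of the 10 was called higher by edgeR, DESeq2 or limma-voom, and none was higher at an unadjusted p under 0.05 in edgeR, against a background of 15.4% called higher. Their median log2 fold change was -0.48, beside 0.07 over all tested genes. In 3 genes (Satb1, Bcl11b and Myb) every lymphoma lay below every thymus library, a pattern of 7.93% of tested genes. In none of the 10 did every lymphoma lie above thymus, a pattern of 6.33% of tested genes.

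**Figure D1:**
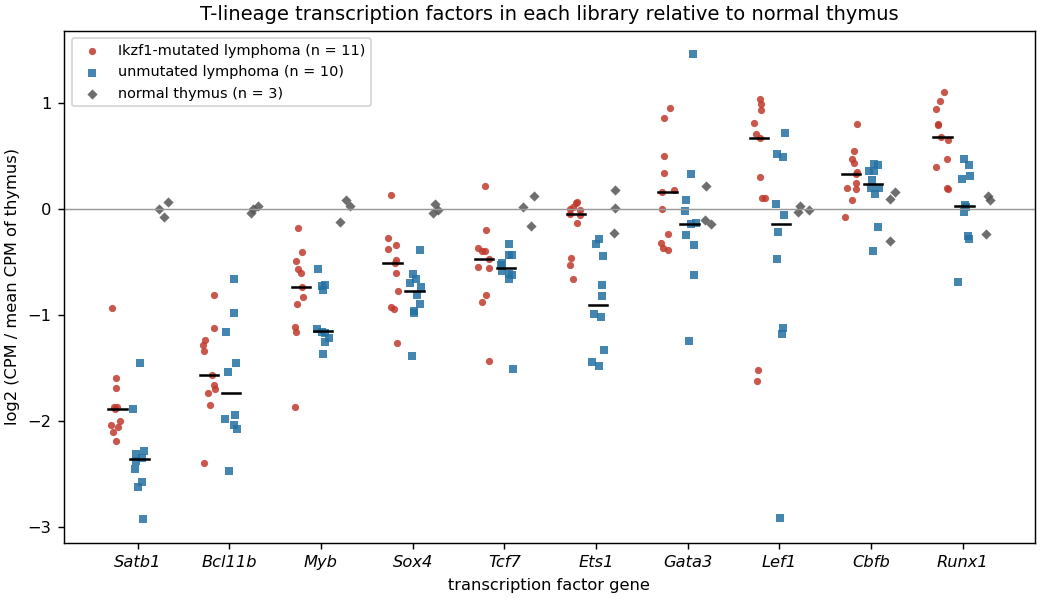
Each point is 1 library, plotted as the log2 ratio of its CPM to the mean CPM of the 3 thymus libraries, for 10 genes ordered by fold change. Black bars are medians of each mutation set. Satb1, Bcl11b and Myb lie below the thymus libraries in all 21 lymphomas, while Lef1 and Gata3 spread to both sides.

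Satb1, on chromosome 17 (chr17:51736187-51833290 in GRCm38), showed the largest fall of the 10. The thymus libraries had 3405, 3242 and 3095 CPM, and the lymphomas had 427.5 CPM at the lowest, 783.2 at the median and 1706 at the highest. No lymphoma came near the thymus range, and the highest was lymphoma 12. The fall was 3.99-fold (log2 fold change -2.0, SE 0.22, adjusted p = 6.74e-07). On the per-length scale, Satb1 was the fourth of the 10 in thymus at 661.6 ± 46.91 TPM (mean ± SD, n = 3) and the seventh in the lymphomas at 158.8 ± 61.67 TPM (n = 21). Satb1 exceeded Bcl11b by 2.54 to 2.71 times in TPM within the thymus libraries, and by 0.76 to 3.33 times (median 1.8) within the lymphomas.

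Bcl11b (chr12:107910403-108003602) had 1000, 1014 and 973.3 CPM in the thymus libraries. In the lymphomas it ranged from 180.1 CPM in lymphoma 18 through a median of 337.5 to 629.6 CPM in lymphoma 31. The thymus libraries thus lay within 1.04-fold of each other, while the lymphomas spanned 3.5-fold and stayed below thymus throughout. The fall was 2.81-fold (log2 fold change -1.49, SE 0.24, adjusted p = 0.000104). Only lymphoma 7 (190.1 CPM) came close to lymphoma 18, and lymphomas 2 (568.6 CPM) and 19 (505.6 CPM) followed lymphoma 31 at the upper end.

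Myb, the proto-oncogene for c-Myb (chr10:21124935-21160984), had 1134, 1094 and 983.9 CPM in thymus. The lymphomas had 293.2 CPM at the lowest (lymphoma 7), 602.6 at the median and 949.5 at the highest (lymphoma 12), which is just short of the lowest thymus library. The log2 fold change was -0.85 (SE 0.21, adjusted p = 0.00342). Sox4 (chr13:28948919-28953713) had 302.9, 315.1 and 296.6 CPM in thymus. In the lymphomas it had 117.0 CPM at the lowest, 188.1 at the median and 335.5 at the highest. All lymphomas but lymphoma 12 lay below thymus (log2 fold change -0.65, SE 0.19, adjusted p = 0.0127). The Sox4 call was lost without thymus 1, 2 or 3 (adjusted p = 0.0631, 0.0788 and 0.0541).

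Tcf7 (chr11:52252371-52283014) was the most abundant of the 10 in TPM in both tissues, at 3827 ± 493.2 TPM in thymus and 2517 ± 686.1 TPM in the lymphomas. The thymus libraries had 4333, 3564 and 4022 CPM, and the lymphomas had 1400 CPM at the lowest (lymphoma 20), 2752 at the median and 4636 at the highest (lymphoma 12). Again lymphoma 12 alone lay above thymus and the other 20 lay below. The log2 fold change was -0.53 with an SE of 0.20, at the edge of the threshold (adjusted p = 0.0494), and it passed in 4 of 24 fits that each left out 1 library. Without thymus 1, 2 or 3 the adjusted p was 0.224, 0.103 and 0.16, and with DESeq2 it was 0.0549.

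Lef1 (chr3:131110471-131224356) had the widest spread of the 10 genes in the lymphomas. The thymus libraries had 372.8, 380.7 and 367.3 CPM. The lymphomas had 49.66 CPM at the lowest (lymphoma 18), 403.3 at the median and 770.3 at the highest (lymphoma 13). None fell within the thymus range: 13 lay above it and 8 below, and the mean difference did not pass the test (log2 fold change 0.20, SE 0.52, adjusted p = 0.802). The lowest after lymphoma 18 were lymphomas 7, 12, 35 and 34 (121.4, 130.8, 165.0 and 171.8 CPM), which hold members of both mutation sets. The share of Lef1 in the summed TPM of Tcf7 and Lef1 was 5.29 to 6.48% in thymus and 1.08 to 23.99% in the lymphomas (median 8.19%).

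Gata3 (chr2:9857078-9890034) spread to both sides of thymus as well. The thymus libraries had 150.3, 188.3 and 146.6 CPM, and the lymphomas had 68.25 CPM at the lowest (lymphoma 31), 160.0 at the median and 444.6 at the highest (lymphoma 18). The lymphoma highest in Bcl11b was thus the lowest in Gata3, and the lymphoma lowest in Bcl11b was the highest in Gata3. In all, 6 lymphomas lay above the thymus range, 8 below and 7 within it (log2 fold change 0.16, SE 0.35, adjusted p = 0.756).

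The Runx complex and Ets1 did not pass the test over all lymphomas. Runx1 (chr16:92601466-92826149) had 134.4, 104.8 and 131.6 CPM in thymus and 76.93, 163.4 and 265.7 CPM at the lowest, median and highest lymphoma (log2 fold change 0.43, SE 0.27, adjusted p = 0.23). In 15 lymphomas it lay above the thymus range. Cbfb (chr8:105170674-105217989) had 293.0, 223.2 and 307.1 CPM in thymus and 208.8, 331.8 and 479.2 CPM at the lowest, median and highest lymphoma (log2 fold change 0.28, SE 0.16, adjusted p = 0.187). Its spread in the lymphomas was the smallest of the 10 genes, with a coefficient of variation of 17.28%. In TPM, Cbfb stood 5.39 to 5.91 times above Runx1 in thymus and 3.07 to 11.59 times in the lymphomas. Ets1 (chr9:32636221-32757820) had 1657, 1243 and 1470 CPM in thymus and 524.5, 1076 and 1532 CPM at the lowest, median and highest lymphoma (log2 fold change -0.42, SE 0.27, adjusted p = 0.244). No lymphoma lay above the thymus range of Ets1, 13 lay below it and 8 within it.

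In TPM, the order of the levels in thymus was Tcf7, Myb, Ets1, Satb1, Sox4, Bcl11b, Cbfb, Lef1, Gata3 and Runx1. The SDs of Myb, Ets1 and Satb1 overlapped between neighbours (746.2 ± 65.41, 712.8 ± 123.8 and 661.6 ± 46.91 TPM). Sox4 stood slightly above Bcl11b (270.2 ± 7.029 and 254.2 ± 8.183 TPM), and both lay within the SD of Cbfb (248.4 ± 46.38 TPM), as did Lef1 (233.0 ± 6.077 TPM). In the lymphomas the order was Tcf7, Ets1, Myb, Cbfb, Lef1, Sox4, Satb1, Gata3, Bcl11b and Runx1. Bcl11b stood at 86.28 ± 31.09 TPM, and only Runx1 was lower, at 56.82 ± 19.53 TPM. After Tcf7, every neighbouring pair in the lymphoma order overlapped within its SDs.

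Setting each mutation set against thymus describes which genes differ in each. The mutated lymphomas carry the numbers 2 to 17 and the unmutated ones 18 to 35. Ikzf1 status therefore cannot be told apart from anything else that runs with these numbers. Both comparisons share the same 3 thymus libraries, so their values stand side by side without a test of overlap. Against thymus, the mutated set had 4 genes lower (background 12.9%) and 1 higher (background 13.1%, and 26% in either direction). The unmutated set had 6 lower (background 17.3%, and 35.4% in either direction). In the unmutated set none was higher by edgeR, DESeq2 or limma-voom or at an unadjusted p under 0.05 in edgeR (background 18% higher). Every lymphoma lay below thymus in 3 genes of the mutated set (Bcl11b, Myb and Satb1, background 11.6%) and in the same 6 that were called in the unmutated set (background 15.1%). Every one lay above thymus in 1 gene of the mutated set (Runx1, background 9.70%) and in none of the unmutated set (background 12.8%). The medians of the 10 log2 fold changes were -0.31 and -0.69, beside 0.05 and 0.06 over all tested genes.

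Bcl11b fell in both sets, with log2 fold changes of -1.46 in the mutated (SE 0.27, adjusted p = 0.000578) and -1.52 in the unmutated lymphomas (SE 0.28, adjusted p = 0.000276). Those of Satb1 were -1.79 and -2.26 (adjusted p = 6.02e-06 and 3.72e-07, mutated first). Those of Myb were -0.74 and -0.98 (adjusted p = 0.0149 and 0.00143), and those of Sox4 -0.53 and -0.79 (adjusted p = 0.0468 and 0.00326). These 4 genes thus fell in either set. The Myb call in the mutated set was lost without thymus 1 or 2 (adjusted p = 0.0837 and 0.0785), and the Sox4 call there was lost in 19 of 24 fits that left out 1 library. Tcf7 was called in the unmutated set alone, where all 10 lymphomas lay below thymus (log2 fold change -0.59, adjusted p = 0.0393). In the mutated set its log2 fold change was -0.47 (adjusted p = 0.109), and -0.57 without lymphoma 12 (adjusted p = 0.0336). Between the sets, Tcf7 differed by 0.12 on the log2 scale (SE 0.15, adjusted p = 0.683). The unmutated call of Tcf7 was itself lost without thymus 1, 2 or 3 and without lymphoma 19, 30 or 34 (adjusted p up to 0.169).

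Ets1 and Runx1 separated the sets. Compared directly, 2 of the 10 genes were higher in the mutated lymphomas, against a background of 2.43% called higher and 5.38% in either direction. By edgeR, DESeq2 and limma-voom none was lower, nor at an unadjusted p under 0.05 in edgeR, against a background of 2.95%. In none of the 10 were the sets free of overlap, which 0.00762% of tested genes were with the mutated set higher and 0.0229% with it lower. Ets1 had 924.3, 1416 and 1532 CPM at the lowest, median and highest mutated lymphoma and 524.5, 780.5 and 1203 CPM at the unmutated ones. The ranges overlapped, with 8 of 11 mutated lymphomas above every unmutated one (log2 fold change 0.68, SE 0.15, adjusted p = 0.0151). In the unmutated set all 10 lymphomas lay below thymus (log2 fold change -0.82, SE 0.21, adjusted p = 0.00487). In the mutated set 3 of 11 did, and 8 lay within the thymus range (log2 fold change -0.14, SE 0.22, adjusted p = 0.679).

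Runx1 showed the other arrangement. It had 141.4, 198.2 and 265.7 CPM at the lowest, median and highest mutated lymphoma and 76.93, 126.1 and 171.1 CPM at the unmutated ones. Again 8 of 11 mutated lymphomas lay above every unmutated one (log2 fold change 0.62, SE 0.14, adjusted p = 0.0151). Here the unmutated set spread around thymus, with 4 lymphomas above its range, 3 below and 3 within (log2 fold change 0.07, SE 0.21, adjusted p = 0.822). All 11 mutated lymphomas lay above it (log2 fold change 0.69, SE 0.21, adjusted p = 0.0196). Without thymus 2, the lowest thymus library in Runx1, the adjusted p of that rise was 0.13. In the 8 mutated and 5 unmutated libraries of at least 20 M counts, the difference between the sets was 0.88 for Ets1 and 0.72 for Runx1 on the log2 scale, with adjusted p of 0.0515 and 0.0603. On log2(TPM + 1), where the calls between the sets split into 76.8% higher (45.2% in the count test), both genes were higher in the mutated set as well.

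**Figure D2:**
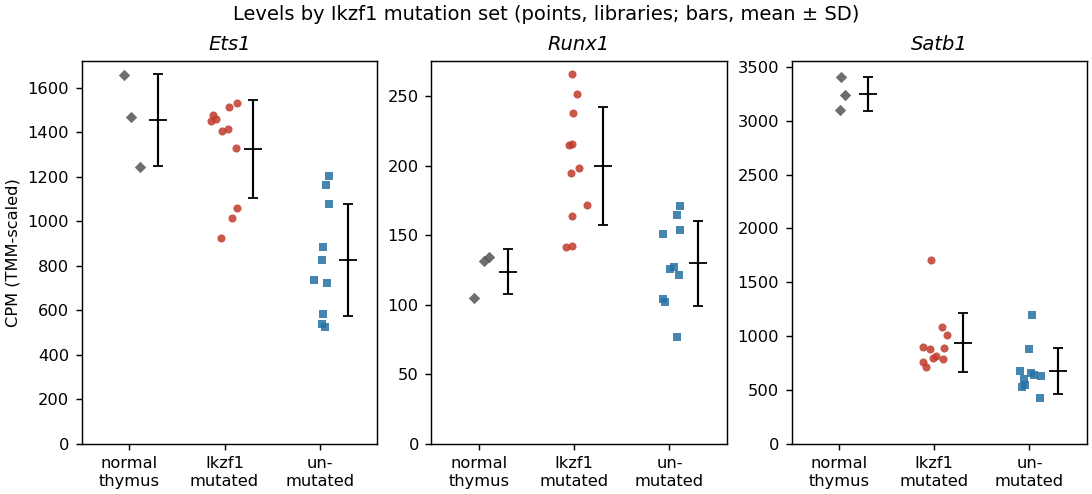
CPM of Ets1, Runx1 and Satb1 in each library (points) with mean ± SD (bars) for thymus (n = 3), mutated (n = 11) and unmutated lymphomas (n = 10), on linear axes from 0. Ets1 of the mutated set reaches the thymus libraries, Runx1 of the mutated set lies above them, and Satb1 of both sets lies far below.

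Satb1 had a mean of 938.4 ± 276.4 CPM in the mutated and 676.2 ± 215.5 CPM in the unmutated lymphomas, and did not pass the test between the sets (log2 fold change 0.47, SE 0.16, adjusted p = 0.0823). The threshold was met with DESeq2 (adjusted p = 0.0413), with limma on log2(TPM + 1) (adjusted p = 0.0376) and without lymphoma 31 (adjusted p = 0.0139), the unmutated lymphoma highest in Satb1. Bcl11b did not pass, at 362.1 ± 102.7 against 346.3 ± 142.6 CPM (log2 fold change 0.06, SE 0.20, adjusted p = 0.877). The Lef1 means were 510.1 ± 229.0 and 339.9 ± 182.2 CPM (log2 fold change 0.59, SE 0.35, adjusted p = 0.325). The other 5 (Gata3, Tcf7, Myb, Sox4 and Cbfb) had log2 fold changes of 0.12 to 0.26 and adjusted p of 0.247 or more. Beside these values, the T-cell markers summed to 4260 to 5370 CPM in the mutated and 3080 to 5680 in the unmutated lymphomas, the macrophage markers to 339 to 943 and 424 to 1290, and the fibroblast markers to 112 to 1300 and 60.9 to 396. The erythroid markers summed to 6.87 to 342 CPM (median 72.6) and 11.3 to 53.0 CPM (median 32.8), with Hbb-bt and Hbb-bs higher in the mutated set (log2 fold change 2.1 and 1.9, adjusted p = 0.0347 and 0.0475). Of the 11 fibroblast markers, 1 was also higher there, Col1a2 (305 ± 293 against 57.1 ± 68.2 CPM, log2 fold change 2.42, adjusted p = 0.0493). The other 10 did not pass, with log2 fold changes from -1.98 (Pdgfra) to 0.9 (Col1a1), and the median over the 11 was 0.18. No macrophage marker passed in edgeR. The part of these markers in the differences of Ets1 and Runx1 was not tested.

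Counted per tumour, 5 to 9 of the 10 genes lay below the thymus range, where 40.7 to 45.6% of all tested genes did. The lower counts are thus near the share over all genes. In the mutated set this was 5 genes in 6 lymphomas, 6 in 3 and 7 in 2. In the unmutated set it was 6 genes in 1 lymphoma, 7 in 5, 8 in 3 and 9 in lymphoma 30, where Cbfb alone lay above thymus. Lymphoma 12 had Tcf7, Runx1, Sox4 and Cbfb above thymus, and Bcl11b (458.6 CPM) and Lef1 (130.8 CPM) below it.

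Whether the genes vary together was described over the 21 lymphomas, with 9 relations of Bcl11b (log2 of CPM + 1, two-sided permutation p from 100000 resamples, adjusted over the 9). Myb passed: Pearson's r was 0.68 (p = 0.00081, adjusted p = 0.00729) and Spearman's rho 0.64 (p = 0.00272, adjusted p = 0.0245). Without lymphomas 18 and 31, the 2 farthest from the Bcl11b median, r was 0.71, and within the sets it was 0.75 and 0.69, mutated first. The 13 lymphomas of at least 20 M counts gave r of 0.45 (permutation p = 0.119, adjusted p = 0.432), so the relation did not pass there. For Lef1, r was 0.51 (adjusted p = 0.0851) and 0.30 without lymphomas 18 and 31. For Gata3, r was -0.43 (adjusted p = 0.151) and fell to 0 at 2 decimals without the same lymphomas, so this slope rested on them. On log2(TPM + 1), 5 of the 9 relations passed, those of Myb (r of 0.73), Lef1 (0.56), Satb1 (0.51), Runx1 (0.50) and Ets1 (0.49).

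Among the 36 pairs of the other 9 genes, which were looked at after the first relations were known, 5 passed by Pearson's r and a further one, Lef1 with Runx1, by rho alone (0.61, adjusted permutation p = 0.0287). Runx1 rose and fell with Satb1 (r of 0.75, adjusted permutation p = 0.0018, rho 0.76), with Ets1 (r of 0.75, adjusted permutation p = 0.0018, rho 0.74) and with Myb (r of 0.66, adjusted permutation p = 0.011, rho 0.72). Ets1 went with Satb1 (r of 0.70, adjusted permutation p = 0.00456, rho 0.75). The permutations ran over all lymphomas without regard to set. For Runx1 and Ets1, both higher in the mutated set, the pooled r and p therefore include the difference between the sets. Within the sets, r of Runx1 and Ets1 was 0.42 in the mutated and 0.55 in the unmutated set, and r of Ets1 and Satb1 was 0.51 and 0.53. Runx1 and Satb1 had 0.47 and 0.73, and Runx1 and Myb 0.84 and 0.53. For Satb1 and Sox4, r was 0.61 over all (adjusted permutation p = 0.0279) and rho 0.58 (adjusted permutation p = 0.0376). Within the sets, their r was 0.84 in the mutated and 0.15 in the unmutated set. Without lymphomas 12 and 35 it was 0.38 over both sets, so the size of r depended on those lymphomas.

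**Figure D3:**
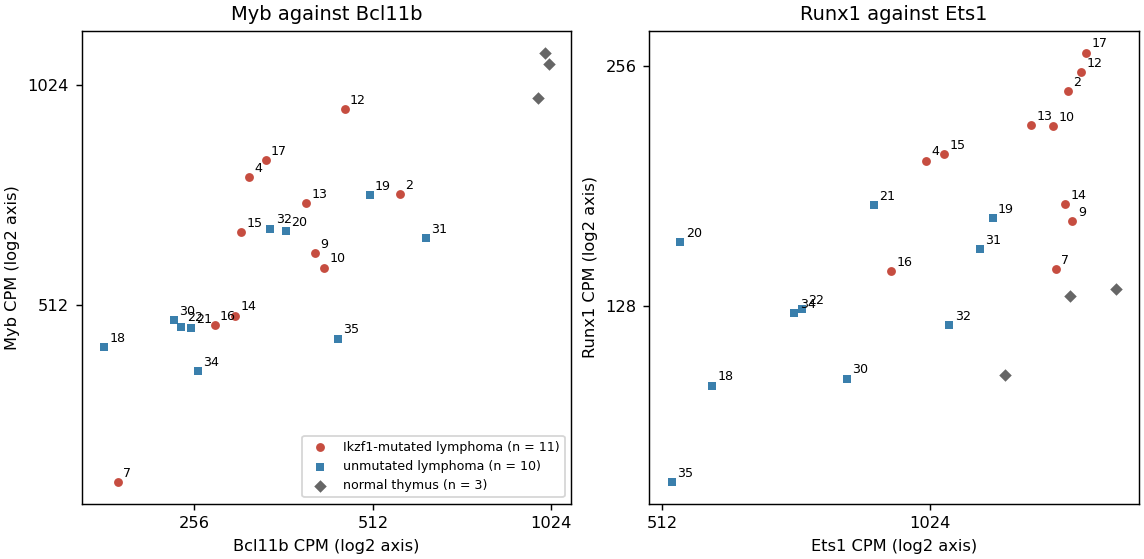
Myb against Bcl11b and Runx1 against Ets1, in CPM on log2 axes, with 1 point for each library and the lymphoma number beside it. Lymphoma 7 is low in both Bcl11b and Myb, the 3 thymus libraries stand apart at high Bcl11b, and most mutated lymphomas lie at high Ets1 and Runx1.

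Of 8656 genes with a mean of at least 10 CPM, those most like Bcl11b over the 21 lymphomas were Sbk1 and Aff1 (r of 0.78 each), Man2c1 (0.77), Mbtps1 and Zfp212 (0.75 each). Aff1 encodes a scaffold of elongation complexes and Mbtps1 the site-1 protease of the secretory pathway. The most opposed were Hspa5 (r of -0.82), the gene of the chaperone BiP in the endoplasmic reticulum, the nuclear receptor gene Nr2f6 (-0.80) and the proteasome activator gene Psme2 (-0.78). The closest genes to the others were Sec62 for Gata3 (0.79), Adgre5 for Tcf7 (0.77), Jmy for Runx1 (0.85), Zswim6 for Ets1 (0.90), Disp1 for Myb (0.82), Zfp260 for Satb1 (0.84), Themis for Sox4 (0.80) and Vps35 for Cbfb (0.84). Themis, a T-cell receptor signalling gene of thymocytes, belongs to the T-cell identity genes below. These are the top of many values and carry no test.

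Lef1 was most like Wdr25 (r of 0.92), which lies 0.89 Mb from Bcl11b on chromosome 12. Wdr25 had 7.712 to 8.733 CPM in thymus and 3.269 to 272.1 CPM (median 97.83) in the lymphomas. The Notch target gene Heyl (r of 0.89) and the receptor gene Notch1 (r of 0.88) were among the 5 highest on the same list and were picked out after it was seen. Notch1 separated the lymphomas into 4 below the thymus range (7, 12, 18 and 35) and 17 above it. Because Notch1 was picked for its r with Lef1, a lower Lef1 in the 4 restates that choice and is no further result. Lymphomas 21, 30, 32 and 34 of the 17 lay below the thymus range of Lef1 as well. Lef1 was 49.66 to 165.0 CPM in the 4 and 171.8 to 770.3 CPM (median 525.5) in the 17. Within the 17, r with Lef1 was 0.82 for Wdr25, 0.70 for Heyl and 0.52 for Notch1. Tcf7, its closest relative among the 10, had 2716 to 4636 CPM in the 4 and 1400 to 3461 CPM in the 17, so the tumours low in Notch1 were not low in Tcf7 among the lymphomas.

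**Figure D4:**
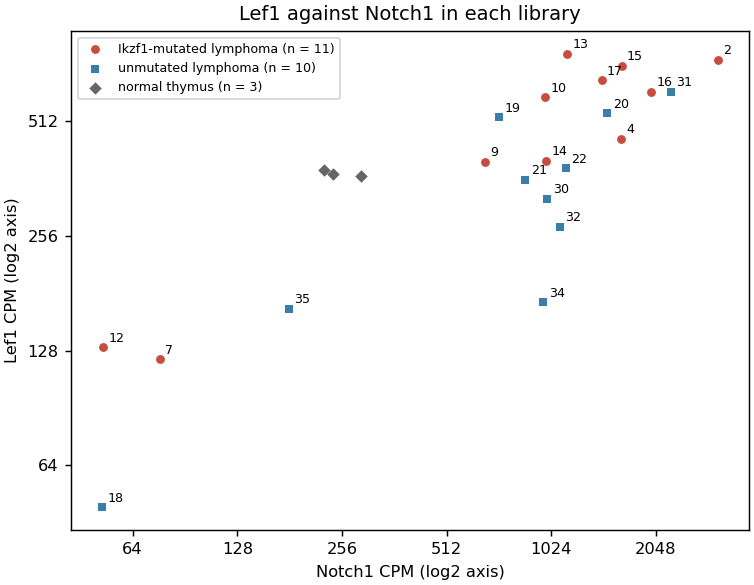
Lef1 against Notch1 in CPM on log2 axes, 1 point for each library. Lymphomas 7, 12, 18 and 35 lie below the thymus libraries in both genes, and lymphoma 34 is low in Lef1 at a Notch1 level within that of the other lymphomas.

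Because thymic lymphomas gain and lose parts of chromosomes, each gene was set beside its neighbours, as the median log2 ratio to thymus of tested genes within 5 Mb. The 71 neighbours of Bcl11b had a median of -0.5 or lower in 6 lymphomas (9, 15, 17, 20, 22 and 30), 3 of each mutation set, where it ranged from -0.75 to -0.5. In the thymus libraries the median was -0.05 to 0.08, each set against the others. In these 6 lymphomas, 50.7 to 64.8% of the neighbours were below -0.5, against 16.9 to 45.1% in the other 15. Bcl11b itself had 236.5 to 409.3 CPM (median 322.2) in the 6 and 180.1 to 629.6 CPM (median 343.6) in the 15. The lymphomas lowest in Bcl11b, 18 and 7, had neighbour medians of -0.08 and -0.10. The sides differed, however, taken as medians of the 19 genes before Bcl11b on the chromosome and the 52 after it. Of the 6, the mutated lymphomas 9, 15 and 17 were low on both sides (-0.6, -0.79 and -0.56 before, -0.6, -0.72 and -0.63 after). The unmutated lymphomas 20, 22 and 30 were low after Bcl11b alone (-0.16, -0.2 and -0.28 before, -0.78, -0.78 and -0.7 after). In lymphoma 7, among the 15, the median was -0.65 before and -0.06 after. In lymphoma 18 these medians were -0.21 and -0.07. Among the 15, the side before was also low in lymphomas 4, 12, 14 and 34 (-0.61, -0.65, -0.58 and -0.59), while the side after stayed above -0.5 in all. Over the 21 lymphomas, r between Bcl11b and its neighbours was 0.30 (permutation p = 0.182, adjusted p = 0.65 over the 10 genes), rho was 0.39 (permutation p = 0.0843), and r was 0.24 without lymphomas 15 and 22. Without the 6 lymphomas, the same 5 genes of the 10 were called lower than in thymus, Bcl11b with a log2 fold change of -1.43 (adjusted p = 0.00129). This choice was made after seeing the data, and it kept lymphomas 4, 7, 12, 14 and 34, in which the side before was low. With a window of 10 Mb, only lymphoma 15 remained at -0.5 or lower. A median over 71 neighbours cannot show a loss of Bcl11b alone or of few genes. Whether chromosome copies bear on the level of Bcl11b was not tested.

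**Figure D5:**
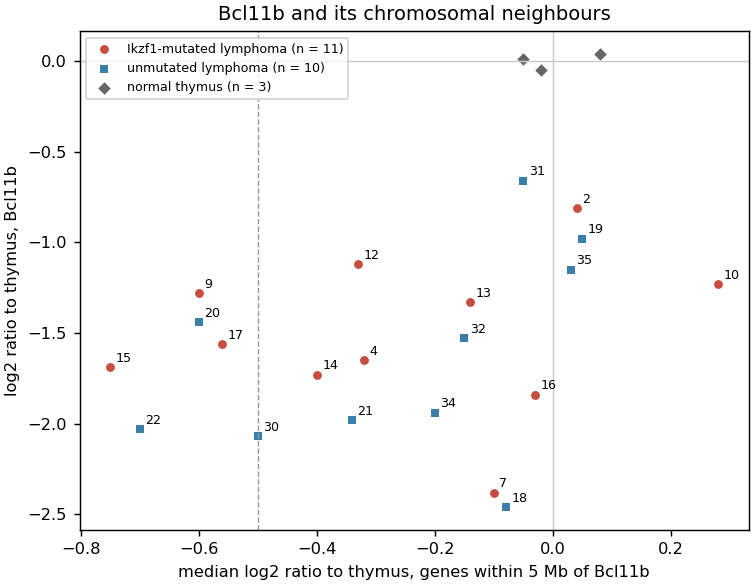
Log2 ratio of Bcl11b to thymus against the median log2 ratio of the 71 tested genes within 5 Mb, with 1 point for each library; the dashed line is at -0.5. All lymphomas lie below thymus on the vertical axis, with neighbour medians of -0.75 to 0.28.

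The neighbours of the other 9 genes stayed within 0.5 of thymus in nearly all lymphomas. The exceptions were the neighbours of Gata3 in lymphoma 2 (0.74) and of Runx1 in lymphoma 34 (0.51). Neither went with a high level of the gene: Gata3 had 180.7 CPM in lymphoma 2, within the thymus range, and Runx1 had 125.4 CPM in lymphoma 34. The neighbours of Ets1 had a median of -0.12 in the mutated and -0.09 in the unmutated set, and those of Runx1 -0.09 and 0.05. Whether chromosome copies bear on the difference between the sets was not tested. Tcf7 lies on chromosome 11, where the series title places a partial deletion, and its 78 neighbours had medians of -0.2 to 0.13 over the lymphomas. None of the 10 relations of a gene to its neighbours passed (lowest adjusted permutation p = 0.65 by Pearson's r and 0.327 by rho). For Satb1, r was -0.33 over all lymphomas and -0.73 without lymphomas 31 and 7, so its value depends on those.

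Genes that these factors act on or with were taken as lists. These lists share genes with the T-cell markers above. Of 22 T-cell identity genes that the factors are known to switch on, 14 were lower in the lymphomas (background 15.4%) and 8 did not pass, with a median log2 fold change of -1.07. In the libraries of at least 20 M counts, 9 were lower. The 14 included Cd8b1, a chain of the CD8 coreceptor (173 ± 167 against 1430 ± 122 CPM, log2 fold change -3.05, adjusted p = 0.000295), Cd27 (192 ± 55.9 against 488 ± 66.3 CPM, -1.35, adjusted p = 0.000171), Cd247 (-1.18, adjusted p = 0.000345) and Cd3e (-1.0, adjusted p = 0.00173), which encode a costimulatory receptor and chains of the T-cell receptor complex. In these 4, all 21 lymphomas lay below thymus. Between the sets, 3 of the 22 were higher in the mutated lymphomas (background 2.43%), 5 with DESeq2 or limma-voom and 0 in the libraries of at least 20 M counts: Cd27 (log2 fold change 0.61, adjusted p = 0.0198), the costimulatory receptor gene Cd28 (1.97, adjusted p = 0.0281) and the kinase gene Zap70 (0.38, adjusted p = 0.0255).

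Of 16 natural killer and innate genes that Bcl11b is known to hold down, 6 were lower and 2 higher in the lymphomas (background 15.4% each way), with a median log2 fold change of -1.10. Over the alternatives of processing, 4 to 8 were lower. Their summed level had a higher median in the lymphomas, opposite in sign, at 168 to 3040 CPM (median 736) against 250 to 333 CPM (median 268) in thymus. A single gene, Gzma, was the largest part of this sum in every library, at 88.5 to 2700 CPM in the lymphomas and 85.8 to 106 CPM in thymus. The receptor genes Klrd1 (0.679 ± 1.01 against 7.49 ± 2.13 CPM, log2 fold change -3.45, adjusted p = 0.000847) and Klrk1 (-3.19, adjusted p = 0.00415) and the granule gene Nkg7 (-3.08, adjusted p = 0.00797) fell, with 21 of 21 lymphomas below thymus. Nfil3, a factor needed for natural killer cells, rose from 2.94 ± 0.292 to 23.8 ± 14.7 CPM (log2 fold change 3.01, adjusted p = 0.00191), and 21 of 21 lymphomas lay above thymus. The other gene that rose was Gzma, for granzyme A (2.88, adjusted p = 0.0127), which is named here after its values were seen. Of 17 progenitor genes, 11 had counts enough to be tested and 1 passed (2 with DESeq2 and 3 without the filter on low counts), Mycn, which was at 0.0921 ± 0.221 CPM against 4.08 ± 0.696 in thymus (log2 fold change -5.42, adjusted p = 8.24e-05). Kit, the stem cell factor receptor gene, differed between the sets, at 3.21 ± 2.62 CPM in the mutated and 74.6 ± 75.5 in the unmutated lymphomas (log2 fold change -4.55, adjusted p = 0.0101), although the ranges overlapped, and with limma-voom no progenitor gene passed between the sets.

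Most partners and relatives did not pass, and their counts lie near the background of 30.8% called in either direction, so the genes below are values rather than a pattern of their lists. Of 13 subunits of the NuRD chromatin complex, a partner of Bcl11b, 2 were higher and 1 lower: Gatad2a (log2 fold change 0.37, adjusted p = 0.00832), Mta1 (1.0, adjusted p = 0.0223) and Gatad2b (-0.28, adjusted p = 0.0401). Of 13 tested partners of the TCF and LEF factors, 2 were higher and 3 lower. The corepressor gene Tle4 fell from 34 ± 3.03 to 4.31 ± 5.56 CPM (log2 fold change -2.98, adjusted p = 0.00543) and the coactivator gene Bcl9 from 48.7 ± 2.64 to 26.5 ± 7.41 CPM (-0.88, adjusted p = 0.00769), both in 21 of 21 lymphomas. Nkd1, an inhibitor and target of Wnt signals, rose from 0.879 ± 0.178 to 19.6 ± 25.5 CPM (4.47, adjusted p = 0.0169), and Ctnnb1, the gene of beta-catenin, from 440 ± 56.7 to 593 ± 83.9 CPM (0.43, adjusted p = 0.0198). Axin2, a Wnt target, was higher in the mutated than in the unmutated set (62.7 ± 19 against 32.7 ± 16.4 CPM, 0.94, adjusted p = 0.0446). No TCF and LEF partner passed between the sets without the filter on low counts, in the libraries of at least 20 M counts or in a fit of the lymphomas alone. Of 17 tested family relatives, 2 were higher (Mybl2, log2 fold change 0.82, adjusted p = 0.0252, and Sox13, 2.11, adjusted p = 0.045) and 1 lower (Tcf7l2, -2.02, adjusted p = 0.00176). The balance depended on the method, with 1 higher and 4 lower by limma-voom and 3 of each by DESeq2. Tcf7l2 stood at 0.773 ± 0.473 CPM, far under Tcf7.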

How the data were processed

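Poly(A) mRNA was sequenced from 21 tumours and 3 thymus samples, which carry 1 batch date per the labels. Per the submitters' processing notes the tools included HTSeq 0.6.1, HISAT2 2.0.1, SAMtools, cutadapt 1.9.1 and edgeR, with genome build GRCm38.p6. Nothing used here gives the strand of counting, so reads of overlapping antisense genes cannot be told apart. What the authors deposited for these libraries is a table of raw counts (whole numbers, not normalized) and a TPM table. Mutation sets rest on how the columns of 2 filtered count tables are named, and how mutations were called is not stated there. The deposited CPM table for Grb10 groups was left out, since its column names show no group.

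Tests of the counts used edgeR 4.0.16 under R 4.3.3 (TMM, filterByExpr with 13121 genes kept, glmQLFit, glmQLFTest), with 2 groups for all lymphomas against thymus and 1 model of 3 groups for the sets, which share an estimate of the spread. The SE was taken as the size of the log2 fold change over the square root of F. Levels are TMM-scaled CPM, and loci are from GENCODE M21. Alternatives were DESeq2 1.42.0, limma 3.58.1 (voom, and log2 of the deposited TPM plus 1 or 0.1), RLE factors, total counts, no filter, libraries of at least 20 M counts and each library left out. The count test was tested on simulated data, in which 200 of 13121 genes were changed and each gene was drawn independently. Fewer genes were changed there than were called in any comparison here, so the rates need not hold for these data. Over the comparisons the count test found 42.1 to 54% of simulated 2-fold changes and 64.9 to 83.7% of 4-fold changes. Of its calls, 0.7 to 6.5% were unchanged genes. A gene that did not pass may thus still differ.

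The 10 genes and the lists were chosen with earlier results of these data known. All 10 are named in each comparison. Of each further list the text names up to 4 genes with the smallest p against thymus and the genes past the threshold between the sets. Genes like each of the 10 are those of highest and lowest r over the lymphomas with a mean of at least 10 CPM; numbered gene models, antigen receptor segments and date-like symbols were passed over.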

Additional observations from a re-analysis of the deposited data

Results flagged for a closer look

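Gata3 was highest in lymphoma 18 of the unmutated set, at 444.6 CPM, where the next highest of the set had 203.1 CPM. The gap exceeded the limit for a single sample far from the other 9. Lymphoma 18 was also the lowest of all lymphomas in Bcl11b and Lef1. Tcf7 was lowest in lymphoma 20 of the unmutated set, at 1400 CPM, where the next lowest had 2523 CPM. The 10 genes were examined in the 10 unmutated lymphomas, the mutated set being too large for this limit, and chance alone puts about 1 in 20 such groups past it.

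The effect against thymus differed between the mutation sets for Ets1 (0.68 on the log2 scale, adjusted p = 0.0151 by edgeR's quasi-likelihood test, 8 of 11 mutated lymphomas above every unmutated one) and for Runx1 (0.62, adjusted p = 0.0151, likewise 8 of 11). Ets1 was lowest in lymphoma 35, as was Runx1. Both differences kept their direction in all 9 alternatives and all 24 fits without 1 library. Over the alternatives, adjusted p was 0.000582 to 0.0515 for Ets1 and 0.000944 to 0.0603 for Runx1, the upper values coming from the libraries of at least 20 M counts.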

How the results depend on the processing

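No result changed direction past the threshold under any alternative. The falls of Bcl11b, Satb1 and Myb in all lymphomas passed in all 9 alternatives and in all 24 fits without 1 library, with adjusted p of at most 0.00209 for Bcl11b, 3.24e-05 and 0.00011 for Satb1 without 1 library and over the alternatives, and 0.0353 for Myb. With libraries of at least 20 M counts, 3 genes instead of 5 were lower in the lymphomas, 0 instead of 2 higher in the mutated than in the unmutated set, and 0 instead of 1 related to Bcl11b. On log2(TPM + 1), 5 were related to Bcl11b. With 10 Mb on each side, 3 instead of 8 pairs of a gene and a lymphoma had neighbours at 0.5 or more from thymus. Leaving out 1 library in turn, the counts ranged from 3 to 5 lower in all lymphomas, 0 to 1 higher and 2 to 5 lower in the mutated set, 5 to 6 lower in the unmutated set and 2 to 3 higher in the mutated than in the unmutated set. The cause of these shifts was not tested, beyond the smaller number of samples. Lef1 against thymus, which did not pass, took values of -0.16 to 0.24 over the alternatives.

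Over all tested genes, calls between the sets were 319 higher and 387 lower in the count test, 654 and 634 with DESeq2, 31 and 79 with at least 20 M counts, 157 and 231 with the lymphomas alone, 376 and 295 with total counts and 546 and 165 on log2(TPM + 1). For all lymphomas against thymus, the share higher was 50.0% in the count test, 37.5% with limma-voom and 37.1% on log2(TPM + 1). In the unmutated set against thymus it was 51.0 and 33.7% on log2(TPM + 1), and in the mutated set 50.2 and 36.3% with limma-voom. Log2(TPM + 1) moved the median of all genes in the unmutated set by -0.18, to -0.118. Calls against thymus fell from 2022 higher and 2022 lower to 957 and 972 without thymus 2. With 3 thymus libraries the comparisons with thymus rest on few samples, while depth was no limit for the 10 genes, none of which had under 1558 counts in any library. No paired analysis was possible because the lymphoma and thymus library numbers name samples only and share 1 number.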

Other observations

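Bcl11b was also set beside the summed CPM of 3 lists over the 21 lymphomas, chosen after the data were seen, with p-values adjusted over the 3. For the natural killer and innate genes, r was -0.51 (permutation p = 0.0198, adjusted p = 0.0594, rho -0.36) and -0.19 without lymphomas 18 and 31. The relation rested on those lymphomas. In lymphoma 18, Gzma, the granzyme A gene, made up 2700 of 3040 CPM of the sum. For the T-cell identity genes, r was 0.38 (permutation p = 0.0928, adjusted p = 0.0928), and for the progenitor genes -0.44 (permutation p = 0.0461, adjusted p = 0.0692). None passed after adjustment.

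Tcf7 and Sox4, both genes of HMG-box factors, had r of 0.92 in the 11 mutated lymphomas and -0.42 in the 10 unmutated ones. The difference between the sets was not tested. Over all 21 lymphomas r was 0.49 (permutation p = 0.0262, adjusted p = 0.119 over 36 pairs) and 0.74 without lymphomas 15 and 20.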
